A study of Homo sapiens with 39 samples.

Results

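The genes described here are the members of 12 families of solute carriers that move metal ions, protons, bicarbonate, chloride and other inorganic ions across membranes. They were chosen by name: every gene whose symbol has the form SLC, then 4, 8, 9, 11, 12, 24, 26, 30, 31, 39, 40 or 41, then A and a number, and which is present in all 13 deposited tables. This gave 79 genes of 45435 rows. Of the 79, 46 had a mean of at least 1 TPM (transcript abundance corrected for transcript length and library size) over the 39 libraries and were tested, and 33 were under 1 TPM and are accounted for by level only. The rule itself used no measured value, but the families were chosen with earlier results of these data known.

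The libraries are RNA-seq of HCT116, a human colorectal cancer cell line. In 12 stable lines made by the Flp-In T-REx system, 1 isoform of the nuclear receptor HNF4A (isoforms 1 to 12), tagged with GFP at its C-terminal end, was expressed from a single inserted copy under doxycycline control. The control is the parental Flp-In cell line without an HNF4A insert. All 13 groups, controls included, were given doxycycline at 2.5 µg/ml for 48 h without selection antibiotics, and each has 3 libraries. Earlier culture differed: blasticidin S with zeocin for parental cells, blasticidin S with hygromycin B for the 12 lines. The 3 libraries of a group are separate samples by label, and nothing says that they came from separate cultures, so the p-values measure the spread between these samples, which may be technical. There was no line with GFP alone, and each isoform is represented by 1 line, so isoform and line cannot be told apart.

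Zinc enters the cytosol through the SLC39 (ZIP) carriers and leaves it, to the outside or into vesicles, through the SLC30 (ZnT) carriers. Dietary iron is taken into the enterocyte by SLC11A2 (DMT1) and leaves it through ferroportin, SLC40A1, while SLC31A1 (CTR1) takes up copper. The SLC4, SLC9, SLC12 and SLC26 families set cell pH, cell volume and the movement of salt and bicarbonate across gut epithelium, and HNF4A is a factor that gut and liver epithelia use to maintain their differentiated gene programmes.

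HNF4A, as the sum of its rows, was measured first as the check of the labels. The sum can tell the lines from the parental cells, but not which isoform a line carries. HNF4A was at 31.5 TPM in the parental cells and between 407 and 1109 TPM in the 36 libraries of the lines, the lowest being isoform 3 replicate 1. The epithelial markers EPCAM, CDH1, KRT8, KRT18 and KRT19 were expressed in all libraries. EPCAM was between 433 and 624 TPM, while the others varied more between lines. From parental means of 31, 1326 and 828 TPM, CDH1, KRT8 and KRT18 had their highest means with isoform 1, at 58.2, 2396 and 1607 TPM, and KRT19 went from 424 TPM to 852 TPM with isoform 7. Of the intestinal markers, CDX2 was between 8.99 and 16.4 TPM, while CDX1, CDH17 and LGR5 stayed under 0.15 TPM in every library and KRT20 was between 0.379 and 1.24 TPM. Of the markers of other cell types, the leukocyte gene PTPRC was at 0.296 TPM or less and ALB at 0.659 TPM or less, while GFAP was between 0.508 and 1.56 TPM, COL1A1 between 7.76 and 14.9 TPM and HBB between 23.2 and 43.4 TPM. The endothelial marker PECAM1 had a parental mean of 2.32 TPM and line means from 1.46 TPM to 5.75 TPM, the highest with isoform 1, the line in which SLC41A2 and SLC4A7 were both called. The part of these markers in the results was not tested. TPM do not keep the depth of a library. Summed over genes, the mean normalised count in the authors' deposited table ran from 50609338 to 56136330. Genes above 0 TPM numbered between 27884 and 30550 per library.

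The 79 transporters spanned a wide range of levels. The highest means over the 39 libraries were those of zinc carriers: 148 TPM for SLC39A7, 106 TPM for SLC39A6, 98.5 TPM for SLC39A4, 90.3 TPM for SLC30A9 and 73.4 TPM for SLC30A5. The bicarbonate exchanger SLC4A2, at 61.4 TPM, was the highest outside the zinc families. All 46 tested members were at or above 1 TPM in every library. The pair just above the filter was SLC26A1 at 3.08 TPM and SLC9A5 at 4.14 TPM, and the pair just below it was SLC4A8 at 0.759 TPM and SLC9A2 at 0.701 TPM. So no member lay between 0.759 and 3.08 TPM.

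**Figure D1:**
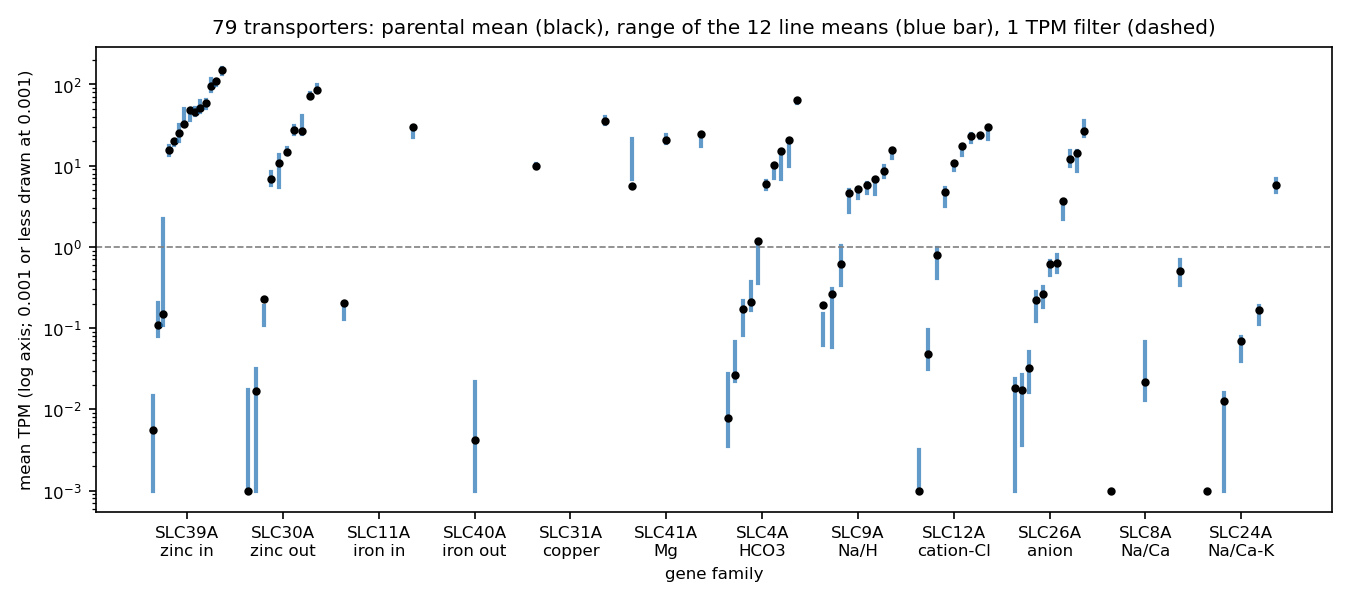
Levels of the 79 transporters by family, as TPM on a log axis: parental mean (black point) and range of the 12 line means (blue bar), with values of 0.001 or less drawn at 0.001 and the filter of 1 TPM dashed. The 46 members above the filter start at a mean of 3.08 TPM (SLC26A1), and SLC24A5 and SLC8A3 are at the bottom with 0 in all 39 libraries.

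Differences from the parental cells were tested with limma on log2(TPM + 1) over 15003 genes, and calls needed 2-fold or more as well as an adjusted p (Benjamini-Hochberg) below 0.05. On this rule 2 of the 46 members were called in at least 1 line, 4.35%, where 6.57% of all genes tested were. The magnesium carrier SLC41A2 rose with isoforms 1, 2, 10 and 11, and the sodium-bicarbonate cotransporter SLC4A7 fell with isoform 1. In bulk libraries such as these, fewer cells with an mRNA and less of it per cell cannot be told apart. With isoform 1, 2 members were called, against 4.52% of all genes. With isoform 2, 1 member was called, against 3.73% of all genes, with isoform 10, 1 against 1.44%, and with isoform 11, 1 against 1.7%.

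In the other lines limma called 0 of the 46 members. There 0.807% of all genes were called with isoform 3, 0.54% with isoform 4, 0.293% with isoform 5 and 0.247% with isoform 6. The shares were 2.08% with isoform 7, 1.41% with isoform 8, 0.827% with isoform 9 and 0.573% with isoform 12. At an unadjusted p under 0.05 these 8 lines had 13, 20, 14, 13, 22, 21, 18 and 17 members, in the order just given. Here and below, no share of all genes at the unadjusted p is given, so such counts are no result about the genes counted. In the authors' deposited table, past an adjusted p of 0.05 and 2-fold, they had 2 members with isoform 3 (SLC41A2 and SLC4A8), 2 with isoform 7 (SLC39A5 and SLC41A2) and 0 with the remaining 6. The share of all genes in that table is not given either, and limma's shares do not apply to it, so these counts are no result about the members.

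Most transporters moved little. For 42 of the 46, the 95% interval of the difference lay inside 2-fold in all 12 lines, 91.3% of members against 84.1% of all genes tested. Of the 552 member tests, 539 had an interval inside 2-fold. The median difference of the members was between -0.13 and -0.01 on the log2 scale over the 12 lines, and that of all genes between -0.11 and 0.01. These shares describe the families and are no test that they differ from other genes.

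Small differences were common at the adjusted p alone. With isoform 1, 27 members passed it, against 58.5% of all genes, and with isoform 2, 32 members against 55.3%. With isoforms 3 to 6 in turn, 8, 12, 5 and 8 members passed, against 26%, 16.3%, 14.8% and 10.1% of all genes. With isoforms 7 to 9 they were 22, 15 and 9, against 39.6%, 34.4% and 22.7%, and with isoforms 10 to 12 they were 20, 20 and 11, against 37.3%, 38.5% and 14.6%.

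How many of these small differences lay on each side rests on how the libraries are scaled. When libraries were rescaled by the median of ratios, the median of all genes moved up by 0.123 with isoform 1 and 0.108 with isoform 2. The shares of all genes here and in the next paragraph are from before rescaling, and none is given after it. The rescaled counts therefore show only how far the scaling moves them and are no result about the members. With isoform 1, 8 members were higher, against 19.8% of all genes, and 19 lower, against 38.7%, which became 12 and 14 members after rescaling. With isoform 2, 7 members were higher, against 19.7% of all genes, and 25 lower, against 35.6%, which became 11 and 14 members after rescaling. With isoform 7, 3 members were higher, against 13.4% of all genes, and 19 lower, against 26.2%, which became 10 and 9 members after rescaling. In these 3 lines the split was closer to even after rescaling, and with isoform 7 the larger side changed from lower to higher.

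With isoform 3, 1 member was higher, against 11.2% of all genes, and 7 lower, against 14.7%, which became 3 and 6 members after rescaling. With isoform 4, 4 members were higher, against 6.26% of all genes, and 8 lower, against 10.1%, which became 5 and 4 members after rescaling. With isoform 5, 3 members were higher, against 9.57% of all genes, and 2 lower, against 5.22%, which became 3 and 5 members after rescaling. With isoforms 4 and 5, too, the larger side of the split changed. With isoform 6, 2 members were higher, against 5.94% of all genes, and 6 lower, against 4.13%, which became 2 and 5 members after rescaling. With isoform 8, 3 members were higher, against 16.9% of all genes, and 12 lower, against 17.5%, which became 6 and 8 members after rescaling. With isoform 9, 2 members were higher, against 10.9% of all genes, and 7 lower, against 11.8%, which became 6 and 6 members after rescaling. In isoform 9 the rescaled split was even. With isoform 10, 4 members were higher, against 17% of all genes, and 16 lower, against 20.4%, which became 8 and 13 members after rescaling. With isoform 11, 3 members were higher, against 14.5% of all genes, and 17 lower, against 24%, which became 8 and 10 members after rescaling. With isoform 12, 4 members were higher, against 7.92% of all genes, and 7 lower, against 6.65%, which became 4 and 5 members after rescaling. Of the 189 member tests past the adjusted p, 2 had another sign after rescaling, SLC39A7 and SLC4A2, both with differences of 0.11 or less in size.

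**Figure D2:**
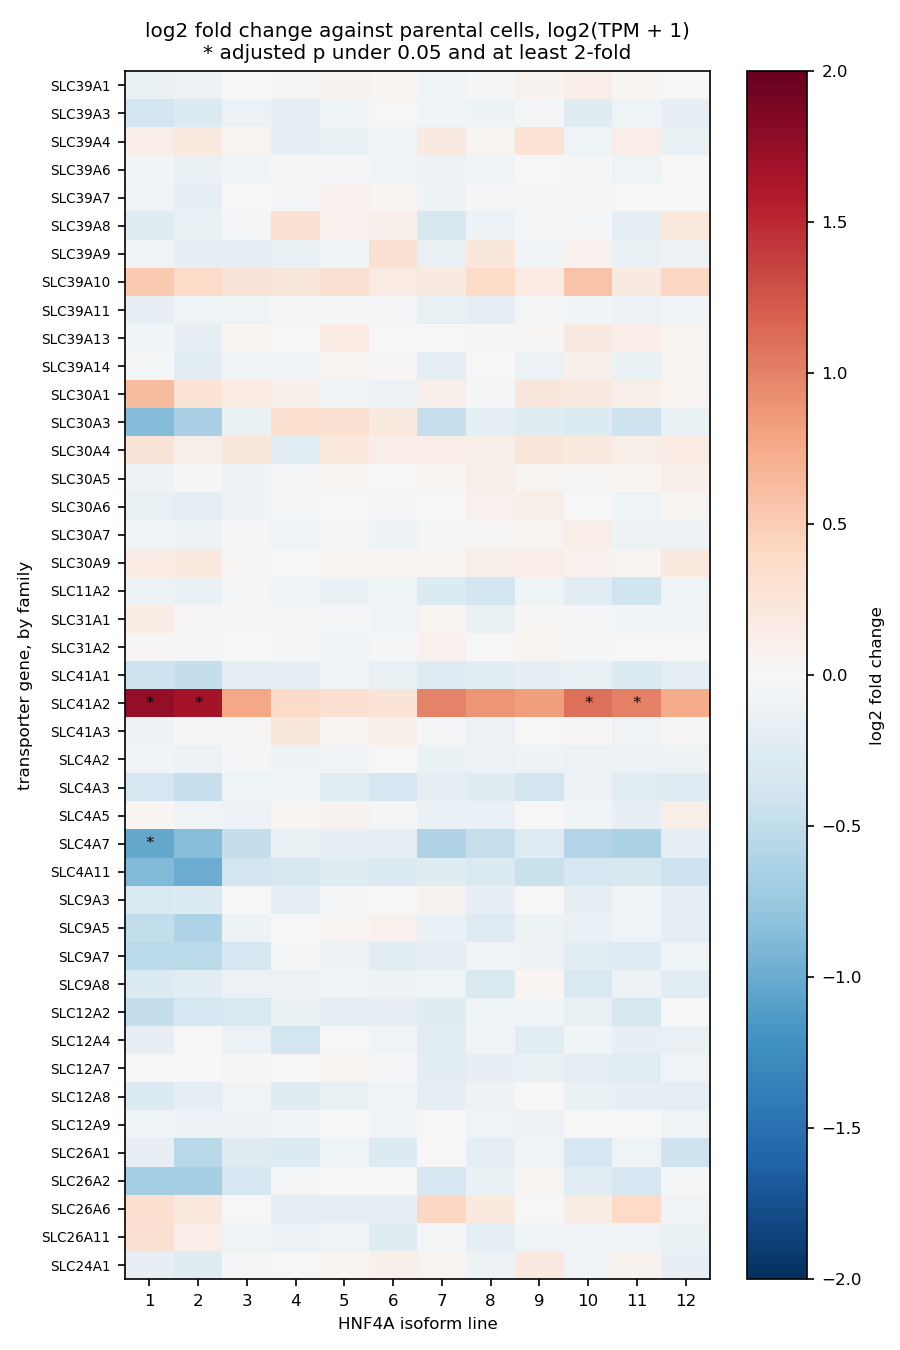
Differences from the parental cells (log2 fold change on the log2(TPM + 1) scale, colour) of 43 of the 46 tested members (rows, by family) in the 12 isoform lines (columns), with a star where a gene was called. SLC41A2 is above 0 in every column, between 0.26 and 1.76, and SLC4A7 and SLC4A11 are below 0 in every column, with their lowest values in the isoform 1 and isoform 2 columns.

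**Figure D3:**
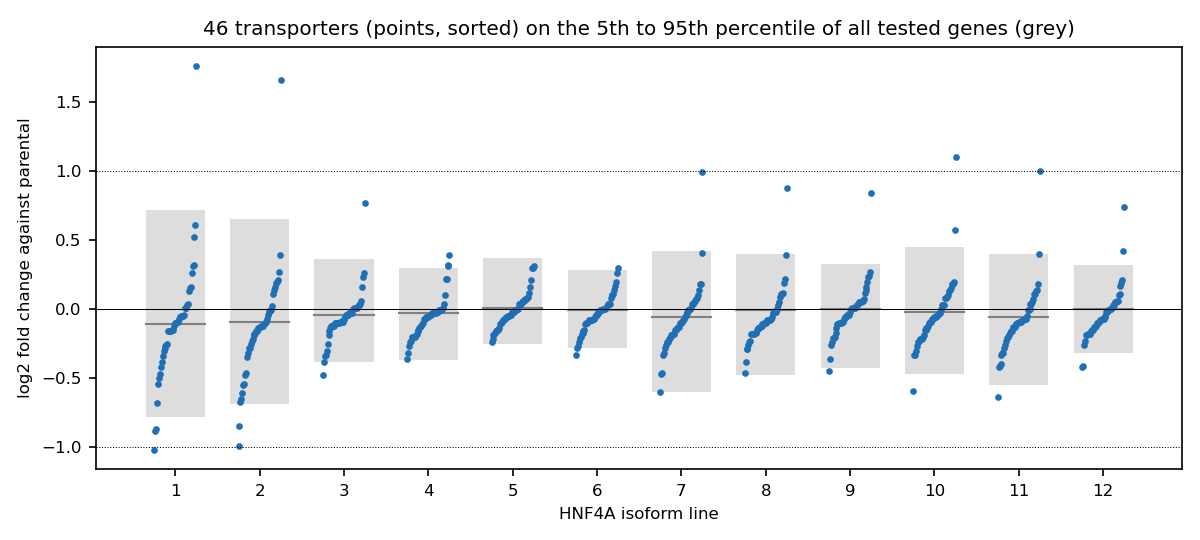
Log2 fold changes of the 46 tested members (blue points, sorted within a line) in each of the 12 lines, over the 5th to 95th percentile of all tested genes (grey bars, with the median as a line), with the 2-fold bounds dotted. Of the 46 members, 39 (84.8%) have all 12 estimates inside 1.5-fold, against 75.4% of all genes tested. Only SLC41A2 (1.76) and SLC4A7 (-1.02) reach a 2-fold bound.

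The zinc importers, SLC39, had 14 members, of which 11 were tested and 0 called. SLC39A7, which releases zinc from the endoplasmic reticulum, ranged from 132 to 161 TPM, and SLC39A6, a plasma membrane importer, from 95.4 to 116 TPM. SLC39A1 (46.3 TPM), SLC39A3 (43.8 TPM), SLC39A9 (50 TPM), SLC39A10 (40.8 TPM), SLC39A11 (19.2 TPM) and SLC39A13 (15.7 TPM) were expressed in all libraries. Over these 11 members and the 12 lines the estimates ran from -0.38 (SLC39A3, isoform 1) to 0.57 (SLC39A10, isoform 10). Under 1 TPM were SLC39A5 (0.568 TPM), SLC39A2 (0.134 TPM) and SLC39A12, which was listed at 0 in 35 libraries.

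SLC39A10, an importer of the plasma membrane, had the largest positive differences of the family and is described after its values were seen. SLC39A10 had 31.6, 32.7 and 34.6 TPM in the parental cells, against 49.4, 47.3 and 50.9 TPM with isoform 10. With isoform 1 it was at 45.3, 47.9 and 50.4 TPM. In 10 of the 12 lines all 3 libraries lay above every parental library, the others being isoform 3, with 31.4, 41 and 47.9 TPM, and isoform 9, with 33, 34.1 and 44.8 TPM. The adjusted p was passed in 6 lines, 10 after rescaling, and no line reached 2-fold (0.57 with isoform 10, SE 0.1, adjusted p = 4.58e-05).

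SLC39A4 is the zinc importer of the intestinal brush border, mutated in acrodermatitis enteropathica. SLC39A4 was at 95.4, 93.8 and 99.3 TPM in the parental libraries, 107, 110 and 99.2 TPM with isoform 1, 108, 119 and 102 with isoform 2 and 108, 107 and 86.4 with isoform 3. For SLC39A4 the libraries had 78, 83.9 and 89.3 TPM with isoform 4, 82.2, 92.6 and 85.6 with isoform 5, 83.8, 92.4 and 96.8 with isoform 6, 109, 114 and 105 with isoform 7 and 103, 92.9 and 102 with isoform 8. The SLC39A4 values were 114, 116 and 117 TPM with isoform 9, 92.7, 91.3 and 86.6 with isoform 10, 103, 107 and 108 with isoform 11 and 87.7, 87.8 and 84.6 with isoform 12. The lines with isoforms 2, 7, 9 and 11 lay above all parental libraries, and those with isoforms 4, 5, 10 and 12 below them. The differences were small: the highest was 0.27 with isoform 9 (SE 0.07, adjusted p = 0.00433) and the lowest -0.2 with isoform 4 (adjusted p = 0.0422). After rescaling, 5 lines were higher at the adjusted p and 0 lower.

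SLC39A8 and SLC39A14 carry zinc, manganese and iron not bound to transferrin. SLC39A8 was at 26.6, 24.6 and 25.6 TPM in the parental libraries, 21.2, 21.8 and 21 TPM with isoform 1, 24.8, 24.3 and 21.3 with isoform 2 and 26.3, 23.4 and 25.6 with isoform 3. For SLC39A8 the libraries had 31.1, 31.8 and 33.2 TPM with isoform 4, 28, 26.6 and 27.3 with isoform 5, 28.3, 27.7 and 26.4 with isoform 6, 20.5, 20.1 and 20.4 with isoform 7 and 24.9, 23.1 and 23.2 with isoform 8. The SLC39A8 values were 22.9, 25.3 and 26.8 TPM with isoform 9, 25.8, 25.3 and 23.6 with isoform 10, 21.8, 22.5 and 22.5 with isoform 11 and 27.5, 31 and 30.7 with isoform 12. Isoform 4 and isoform 12 lay above every parental library, and isoforms 1, 7 and 11 below. The difference was 0.31 with isoform 4 (SE 0.06, adjusted p = 0.000176) and -0.32 with isoform 7 (SE 0.06, adjusted p = 2.94e-05). After rescaling, 2 lines were still higher and 2 lower at the adjusted p.

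SLC39A14 was at 58.4, 61.9 and 57.8 TPM in the parental libraries, 58.4, 55.6 and 59.7 TPM with isoform 1, 50.7, 52.1 and 49.7 with isoform 2 and 57.9, 56.8 and 56.6 with isoform 3. For SLC39A14 the libraries had 54.8, 56.4 and 58 TPM with isoform 4, 65.3, 61.1 and 59.1 with isoform 5, 61.4, 59.4 and 59.9 with isoform 6, 51.4, 54 and 50.9 with isoform 7 and 62.9, 55.1 and 60.1 with isoform 8. The SLC39A14 values were 50.5, 56.9 and 57.7 TPM with isoform 9, 66.7, 62.5 and 62 with isoform 10, 55.6, 55.8 and 51.1 with isoform 11 and 58.6, 63.8 and 62.1 with isoform 12. Isoforms 2, 7, 9 and 11 lay below all 3 parental libraries of SLC39A14, and isoform 10 above them. The lowest difference of SLC39A14 was -0.22 with isoform 2 (SE 0.05, adjusted p = 0.000402), and the 95% intervals over the 12 lines lay between -0.32 and 0.2. At the adjusted p it was lower in 3 lines, and after rescaling lower in 1 and higher in 2.

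SLC39A5, a zinc importer of the basolateral side of gut and pancreas epithelium, was under the filter and was not part of the main test. The gene lies on chromosome 12 from 56230049 to 56237846, plus strand (GRCh38, GENCODE 29). SLC39A5 was at 0.0935, 0.271 and 0.0867 TPM in the parental libraries, 1.92, 2.4 and 2.26 TPM with isoform 1, 1.01, 1.15 and 1.55 with isoform 2 and 0.154, 0.306 and 0.451 with isoform 3. For SLC39A5 the libraries had 0.147, 0.142 and 0.122 TPM with isoform 4, 0.0955, 0.161 and 0.0672 with isoform 5, 0.101, 0.202 and 0.135 with isoform 6, 0.66, 0.849 and 0.988 with isoform 7 and 0.507, 0.59 and 0.563 with isoform 8. The SLC39A5 values were 0.264, 0.145 and 0.094 TPM with isoform 9, 0.769, 0.727 and 0.708 with isoform 10, 0.823, 0.627 and 0.574 with isoform 11 and 0.168, 0.14 and 0.142 with isoform 12. All libraries with isoforms 1, 2, 7, 8, 10 and 11 lay above the 3 parental libraries, and with isoforms 1 and 2 alone did all 3 reach 1 TPM. The parental mean was 0.151 TPM ± 0.105 (SD, n = 3), and the means were 2.19 TPM ± 0.245 (SD, n = 3) with isoform 1 and 1.24 TPM ± 0.279 (SD, n = 3) with isoform 2.

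In a fit without the filter, over 39252 genes, SLC39A5 rose with isoform 1 (log2 fold change 1.47, SE 0.09, adjusted p = 4.01e-14), the only call among the members under 1 TPM. In that fit the difference of SLC39A5 was 0.95 with isoform 2, 0.67 with isoform 7, 0.6 with isoform 10 and 0.54 with isoform 11. The authors' deposited table, made from counts, lists SLC39A5 at 3.22 with isoform 1, 2.21 with isoform 2, 1.27 with isoform 7, 1.02 with isoform 10 and 1.01 with isoform 11. The added pseudocount of 1 TPM makes the fitted values smaller for a gene at this level. ANKRD52, on the opposite strand, overlaps the end of SLC39A5. It was at 30.9 TPM in the parental cells and differed by -0.19 with isoform 1 and -0.06 with isoform 2, and its part in the SLC39A5 values was not tested.

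The 250 bases before the start of SLC39A5 in RefSeq are shown because SLC39A5 was the only member under the filter called higher over the parental cells in the fit without a filter. They were searched on both strands for 3 forms of the core recognised by HNF4 proteins (CAAAGTCCA, CAAAGGTCA and CAAAGTTCA) and for the direct repeat of AGGTCA with 1 base between its copies, and hold none of them. Letters are from RefSeq, GRCh38.p14, on the gene's strand, plus strand, chr12:56229801-56230050.
SLC39A5: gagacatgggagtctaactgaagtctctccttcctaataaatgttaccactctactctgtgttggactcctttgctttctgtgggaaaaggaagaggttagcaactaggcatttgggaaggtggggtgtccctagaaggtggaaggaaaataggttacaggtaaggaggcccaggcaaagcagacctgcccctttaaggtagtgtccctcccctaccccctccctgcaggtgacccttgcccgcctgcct

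The zinc exporters, SLC30, had 10 members, of which 7 were tested and 0 called. SLC30A9 (90.3 TPM), SLC30A5 (73.4 TPM), SLC30A6 (27.3 TPM) and SLC30A7 (14.6 TPM), the last 3 of which supply zinc to the secretory pathway, had all their 95% intervals between -0.34 and 0.36. SLC30A4 (7.68 TPM), another carrier of zinc into vesicles, had estimates from -0.23 to 0.26. SLC30A10, which exports manganese (0.151 TPM), SLC30A8 (0.0107 TPM) and SLC30A2 (0.00653 TPM) were under 1 TPM, the last 2 listed at 0 in 11 and 27 libraries.

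SLC30A1 is the zinc exporter of the plasma membrane, and its transcription is raised by zinc through the metal-responsive factor MTF1. SLC30A1 was at 26.8, 23.7 and 28.8 TPM in the parental libraries, 41.7, 37.7 and 43.1 TPM with isoform 1, 32.5, 32.5 and 30.7 with isoform 2 and 27.1, 30.7 and 31.1 with isoform 3. For SLC30A1 the libraries had 30, 25.6 and 29.2 TPM with isoform 4, 27.5, 23.4 and 25.5 with isoform 5, 26.6, 22.1 and 24.2 with isoform 6, 28.6, 26.5 and 29.9 with isoform 7 and 25.9, 23.9 and 28 with isoform 8. The SLC30A1 values were 30.5, 28.1 and 34.9 TPM with isoform 9, 31.1, 27.9 and 30.9 with isoform 10, 34.5, 26.4 and 25.4 with isoform 11 and 28, 23.9 and 30.8 with isoform 12. All 3 isoform 1 libraries lay above every other library of the series, and the isoform 2 libraries lay above the parental ones. In the remaining 10 lines SLC30A1 overlapped the parental range. The difference of SLC30A1 was 0.61 with isoform 1 (SE 0.1, adjusted p = 6.42e-06; 0.75 after rescaling) and 0.27 with isoform 2 (adjusted p = 0.027). Of all genes, 15.8% were past 1.5-fold with isoform 1, as SLC30A1 was.

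The SLC30A1 start region is shown because it holds a match to the metal response core, searched as TGCACNC or TGCGCNC on both strands. Such a match was in 24.8% of 35116 windows of 250 bases before a RefSeq start, and in 29 of the 99 windows of the members (29.3%), which belong to 26 of 65 members with a window. In the SLC30A1 window the match, in capitals, is on the reverse strand. Letters are from RefSeq, GRCh38.p14, on the gene's minus strand, chr1:211579162-211579411.
SLC30A1: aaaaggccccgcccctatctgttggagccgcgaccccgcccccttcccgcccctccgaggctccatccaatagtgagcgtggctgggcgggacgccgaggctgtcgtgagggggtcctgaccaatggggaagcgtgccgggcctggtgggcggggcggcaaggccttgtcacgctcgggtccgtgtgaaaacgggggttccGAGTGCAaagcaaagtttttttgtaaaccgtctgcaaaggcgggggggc

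SLC30A3, which loads zinc into synaptic vesicles in the brain, was expressed in HCT116 and had differences in both directions, for which it was picked. The gene lies on chromosome 2 from 27253684 to 27275817, minus strand. SLC30A3 was at 10.3, 11 and 10.8 TPM in the parental libraries, 5.94, 5.3 and 5.03 TPM with isoform 1, 6.33, 6.61 and 6.48 with isoform 2 and 10.6, 9.5 and 8.77 with isoform 3. For SLC30A3 the libraries had 14.5, 13.4 and 12.8 TPM with isoform 4, 12.9, 14 and 13.2 with isoform 5, 11.8, 12.7 and 12.8 with isoform 6, 7.21, 7.17 and 8.11 with isoform 7 and 8.71, 9.6 and 9.67 with isoform 8. The SLC30A3 values were 8.93, 8.74 and 9.11 TPM with isoform 9, 8.76, 9.04 and 8.37 with isoform 10, 8.59, 6.97 and 7.7 with isoform 11 and 9.49, 10.1 and 9.51 with isoform 12. With isoforms 4, 5 and 6 all libraries of SLC30A3 lay above the parental ones, and with isoforms 1, 2 and 7 to 12 all lay below. The parental mean of SLC30A3 was 10.7 TPM ± 0.372 (SD, n = 3), against 13.6 TPM ± 0.878 with isoform 4 and 5.42 TPM ± 0.465 with isoform 1.

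None of the 12 differences of SLC30A3 reached 2-fold. They were -0.87 with isoform 1 (SE 0.07, adjusted p = 2.29e-12), -0.65 with isoform 2, and 0.32 with isoform 4 (SE 0.07, adjusted p = 0.00101). With isoforms 5 and 6 they were 0.3 (adjusted p = 0.00205) and 0.2 (adjusted p = 0.0493). After rescaling SLC30A3 was still higher in 3 lines and lower in 6 at the adjusted p. Set directly against each other, isoform 4 was above isoform 1 by 1.18 (SE 0.07, adjusted p = 1.85e-15), in a contrast in which 55.1% of all genes passed the adjusted p. These lines were picked as the highest and lowest for SLC30A3 in the same data, so the p-value is no further support. SLC30A3 shares its locus with DNAJC5G on the other strand. DNAJC5G was at 4.48 TPM in the parental cells and differed by -0.61 with isoform 1 and -0.51 with isoform 2, so reads of the pair may not be told apart, and this was not tested.

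Among the iron and manganese carriers, SLC11A2 was tested and SLC11A1 (0.169 TPM), a carrier of phagocyte vesicles, was under 1 TPM. SLC11A2 takes up ferrous iron with protons. SLC11A2 was at 28.3, 31.9 and 30.3 TPM in the parental libraries, 26.5, 28.8 and 27.8 TPM with isoform 1, 27, 29.1 and 26.1 with isoform 2 and 29.4, 30.2 and 28.5 with isoform 3. For SLC11A2 the libraries had 28, 30.1 and 28.4 TPM with isoform 4, 26.8, 28.5 and 26.6 with isoform 5, 27.6, 29.6 and 27.4 with isoform 6, 23.7, 26 and 24.2 with isoform 7 and 22.9, 22.4 and 23.5 with isoform 8. The SLC11A2 values were 27.3, 28.6 and 29 TPM with isoform 9, 26.2, 26.7 and 24.2 with isoform 10, 23.6, 23.8 and 20.7 with isoform 11 and 27.2, 30.6 and 27.8 with isoform 12. With isoforms 7, 8, 10 and 11 all libraries lay below the parental ones, and the other lines overlapped them. The lowest difference of SLC11A2 was -0.4 with isoform 11 (SE 0.06, adjusted p = 1.21e-06), followed by -0.38 with isoform 8 (adjusted p = 3.16e-06). Isoforms 2, 7, 8, 10 and 11 passed the adjusted p, 5 lines before and 5 after rescaling, and none reached 2-fold.

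SLC40A1, the only known cellular exporter of iron, was listed at 0 in 29 of the 39 libraries. SLC40A1 was at 0.0124, 0 and 0 TPM in the parental libraries, 0.0113, 0 and 0 TPM with isoform 1, 0.0122, 0.0117 and 0 with isoform 2 and 0, 0 and 0 with isoform 3. For SLC40A1 the libraries had 0, 0.0115 and 0 TPM with isoform 4, 0.0109, 0 and 0 with isoform 5, 0, 0 and 0 with isoform 6, 0.0143, 0 and 0 with isoform 7 and 0, 0 and 0 with isoform 8. The SLC40A1 values were 0, 0 and 0 TPM with isoform 9, 0.0416, 0 and 0.0236 with isoform 10, 0, 0 and 0 with isoform 11 and 0, 0 and 0.0142 with isoform 12. No line reached a mean of 0.03 TPM, and the highest was 0.0217 TPM with isoform 10. So ferroportin mRNA stayed near 0 in the parental cells and in all 12 lines.

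Both copper carriers were tested and neither was called. SLC31A1 is the high-affinity copper importer. SLC31A1 was at 35.1, 36.9 and 34.8 TPM in the parental libraries, 40.3, 39.8 and 38.7 TPM with isoform 1, 36.7, 37.7 and 33.7 with isoform 2 and 33.4, 35.7 and 34.7 with isoform 3. For SLC31A1 the libraries had 33.9, 36 and 34.6 TPM with isoform 4, 35.6, 35.1 and 32.9 with isoform 5, 34.2, 34 and 33.2 with isoform 6, 35.8, 40.3 and 35.3 with isoform 7 and 33.7, 30.7 and 33 with isoform 8. The SLC31A1 values were 33.9, 37.1 and 37.9 TPM with isoform 9, 35.9, 34.8 and 33.2 with isoform 10, 35.1, 36.3 and 32.1 with isoform 11 and 32.2, 34.9 and 34.6 with isoform 12. Isoform 1 lay above all parental libraries of SLC31A1, and isoforms 6 and 8 below. The difference was 0.15 with isoform 1 (SE 0.05, adjusted p = 0.0173; 0.28 after rescaling), and the 95% intervals over the 12 lines lay between -0.24 and 0.26.

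SLC31A2, which acts on copper in endosomes, was as steady. SLC31A2 was at 9.68, 9.9 and 9.84 TPM in the parental libraries, 10.2, 10.1 and 9.66 TPM with isoform 1, 9.24, 10 and 9.31 with isoform 2 and 10.9, 9.94 and 8.86 with isoform 3. For SLC31A2 the libraries had 9.8, 9.52 and 9.37 TPM with isoform 4, 9.51, 9.17 and 9.6 with isoform 5, 9.05, 9.51 and 9.96 with isoform 6, 11.1, 10.2 and 9.88 with isoform 7 and 10.6, 10.1 and 8.87 with isoform 8. The SLC31A2 values were 9.69, 10.9 and 9.95 TPM with isoform 9, 10.5, 9.26 and 9.09 with isoform 10, 10, 9.48 and 9.89 with isoform 11 and 8.97, 10 and 10.4 with isoform 12. With isoform 5 all libraries of SLC31A2 lay below the parental ones, and the other lines overlapped them. No line passed the adjusted p for SLC31A2, the smallest being 0.367, although after rescaling 1 line did. The 95% intervals of SLC31A2 lay between -0.18 and 0.21, so a change of 2-fold in either direction was outside them in every line.

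**Figure D4:**
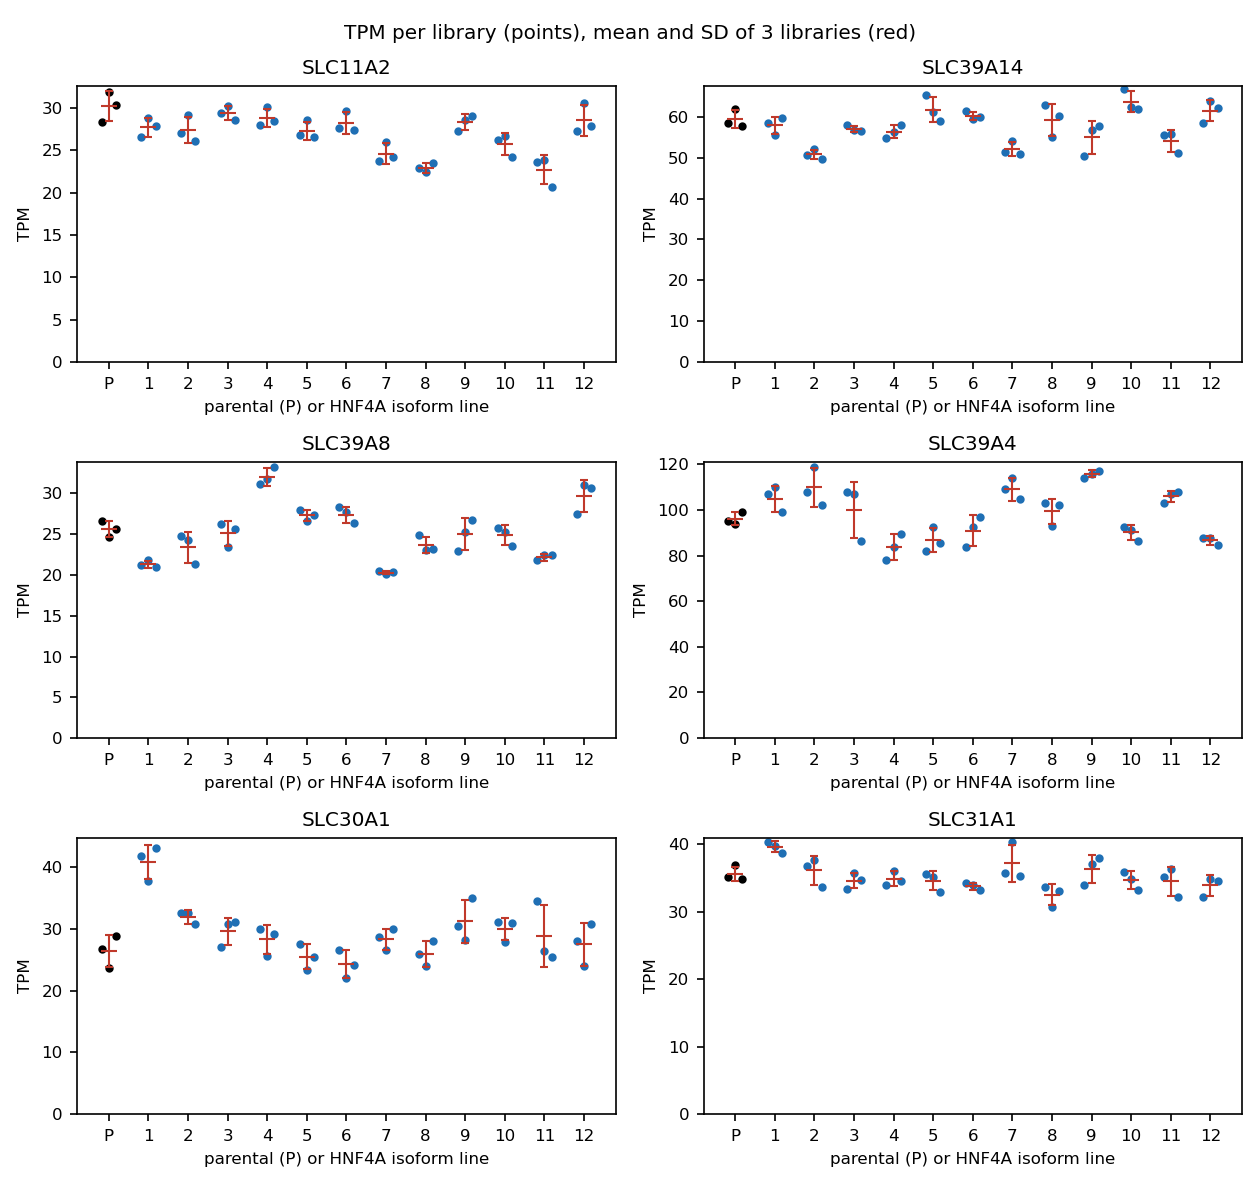
TPM per library (points), with mean and SD of 3 libraries (red), of 6 metal carriers in the parental cells (P) and the 12 isoform lines; each vertical axis starts at 0. SLC30A1 has its highest libraries with isoform 1 (37.7 to 43.1 TPM), SLC11A2 its lowest with isoforms 8 and 11, and SLC31A1 stays between 30.7 and 40.3 TPM.

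The magnesium carriers, SLC41, had 3 members, all tested, and held the largest difference among the 46 tested members on the log2(TPM + 1) scale. SLC41A2 moves magnesium and other divalent ions in cell membranes. It lies on chromosome 12 from 104802553 to 104958744, minus strand. SLC41A2 was at 5.15, 5.95 and 5.77 TPM in the parental libraries, 19.6, 21.5 and 23.1 TPM with isoform 1, 19.3, 19.8 and 20.8 with isoform 2 and 7.25, 11.3 and 13.2 with isoform 3. For SLC41A2 the libraries had 7.45, 8.07 and 7.57 TPM with isoform 4, 7.13, 7.15 and 7.23 with isoform 5, 7.16, 6.92 and 6.7 with isoform 6, 11.9, 12.2 and 12.4 with isoform 7 and 10.9, 10.3 and 12.4 with isoform 8. The SLC41A2 values were 9.52, 10.4 and 13 TPM with isoform 9, 12.4, 13.9 and 13.4 with isoform 10, 11.1, 13.4 and 12.3 with isoform 11 and 8.52, 10.8 and 11 with isoform 12. All 36 libraries of the lines lay above the 3 parental libraries of SLC41A2. The isoform 1 and isoform 2 libraries, from 19.3 to 23.1 TPM, lay above all others, the highest of which was at 13.9 TPM.

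The parental mean of SLC41A2 was 5.62 TPM ± 0.42 (SD, n = 3), against 21.4 TPM ± 1.73 (SD, n = 3) with isoform 1 and 19.9 TPM ± 0.751 (SD, n = 3) with isoform 2. The log2 fold change was 1.76 with isoform 1 (SE 0.12, adjusted p = 2.4e-13) and 1.66 with isoform 2 (SE 0.12, adjusted p = 1.1e-12). SLC41A2 also rose with isoform 10 (1.1, adjusted p = 2.16e-08) and isoform 11 (1, adjusted p = 9.5e-08).

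In order of its mean, SLC41A2 was highest with isoforms 1 and 2, which overlapped each other. Then came isoforms 10, 11, 7, 8, 9, 3 and 12, with means from 13.2 to 10.1 TPM and overlapping neighbours. Isoforms 4, 5 and 6 followed at 7.7, 7.17 and 6.93 TPM. Isoform 4 did not overlap isoform 12 above it or isoform 5 below it, while isoforms 5 and 6 overlapped. The parental cells were lowest and overlapped no line. The differences of SLC41A2 with isoform 7 (0.99, adjusted p = 9.76e-08), isoform 8 (0.88), isoform 9 (0.84), isoform 3 (0.77) and isoform 12 (0.74) passed the adjusted p but not 2-fold. With isoform 4 the difference of SLC41A2 was 0.39 (adjusted p = 0.0243). With isoform 5 it was 0.3 (adjusted p = 0.0928) and with isoform 6 0.26 (adjusted p = 0.189), and neither passed.

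The libraries of isoform 3 differed among themselves for SLC41A2, with 7.25 TPM in replicate 1, which also had the lowest HNF4A (407 TPM), and 11.3 and 13.2 TPM in the others; the part of HNF4A level was not tested. The call of SLC41A2 with isoform 11 was lost without parental replicate 1 (0.95), isoform 11 replicate 2 (0.94) or isoform 11 replicate 3 (just under 1). With isoform 7 it became a call after rescaling, with a pseudocount of 0.1, and without parental replicate 2, parental replicate 3 or isoform 7 replicate 1. In the authors' deposited table SLC41A2 was at 2.05 with isoform 1, 1.93 with isoform 2, 1.23 with isoform 10, 1.17 with isoforms 7 and 11, and 1.11 with isoform 3.

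The start region of SLC41A2 is shown because this is the member that rose in the most lines. It was searched for the same 4 motifs as that of SLC39A5 and holds none. CAAAGTCCA was in 0.325% of the 35116 windows, CAAAGGTCA in 0.339%, CAAAGTTCA in 0.251% and the direct repeat in 0.0171%. Letters are from RefSeq, GRCh38.p14, on the gene's minus strand, chr12:104958747-104958996.
SLC41A2: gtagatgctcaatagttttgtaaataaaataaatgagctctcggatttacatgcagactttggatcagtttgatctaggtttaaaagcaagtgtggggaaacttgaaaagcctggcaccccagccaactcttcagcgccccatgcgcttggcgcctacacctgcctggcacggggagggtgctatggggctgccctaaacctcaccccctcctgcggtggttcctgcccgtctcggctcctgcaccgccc

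The other magnesium carriers did not follow SLC41A2. SLC41A1, a sodium-magnesium exchanger of the plasma membrane, was lower than the parental cells at the adjusted p in 11 lines, and in 11 after rescaling. SLC41A1 was at 23.7, 25.9 and 24.4 TPM in the parental libraries, 17.9, 18.7 and 17.9 TPM with isoform 1, 16.7, 18.1 and 17.6 with isoform 2 and 22.3, 21 and 21.1 with isoform 3. For SLC41A1 the libraries had 21.8, 22 and 20.4 TPM with isoform 4, 24.2, 23.6 and 23.1 with isoform 5, 22.3, 22.2 and 21.9 with isoform 6, 20.3, 20.7 and 20.4 with isoform 7 and 21, 20.3 and 21.6 with isoform 8. The SLC41A1 values were 21.6, 22 and 22.1 TPM with isoform 9, 23, 21.5 and 22.2 with isoform 10, 20.3, 21.4 and 18.9 with isoform 11 and 20.4, 21.9 and 22.8 with isoform 12. The 3 libraries of every line except isoform 5 lay below the parental ones. The lowest difference of SLC41A1 was -0.48 with isoform 2 (SE 0.04, adjusted p = 1.71e-10), and isoform 1 had -0.42. SLC41A3, a carrier of the mitochondrion, had a mean of 20.8 TPM and estimates from -0.12 to 0.22.

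**Figure D5:**
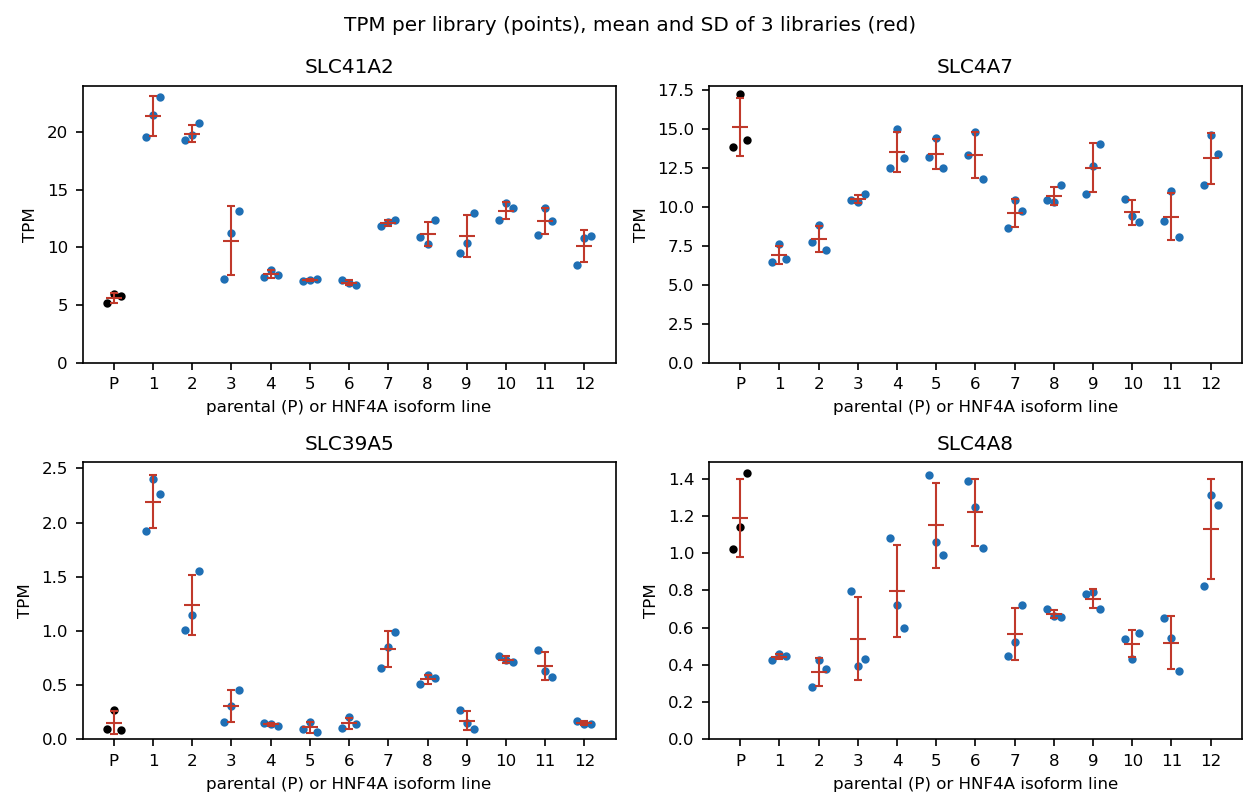
TPM per library (points), with mean and SD of 3 libraries (red), of SLC41A2, SLC4A7, SLC39A5 and SLC4A8 in the parental cells (P) and the 12 isoform lines. SLC41A2 is at 5.15 to 5.95 TPM in the parental cells and 19.3 to 23.1 TPM with isoforms 1 and 2, and SLC4A7 at 13.8 to 17.2 TPM and 6.45 to 8.83 TPM.

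The bicarbonate carriers, SLC4, had 10 members, of which 5 were tested and 1 called. SLC4A7 (NBCn1) brings sodium and bicarbonate into the cell and so raises cytosolic pH. It lies on chromosome 3 from 27372721 to 27484420, minus strand. SLC4A7 was at 13.8, 17.2 and 14.3 TPM in the parental libraries, 6.45, 7.58 and 6.66 TPM with isoform 1, 7.74, 8.83 and 7.23 with isoform 2 and 10.4, 10.3 and 10.8 with isoform 3. For SLC4A7 the libraries had 12.5, 15 and 13.1 TPM with isoform 4, 13.2, 14.4 and 12.5 with isoform 5, 13.3, 14.8 and 11.8 with isoform 6, 8.64, 10.4 and 9.71 with isoform 7 and 10.4, 10.3 and 11.4 with isoform 8. The SLC4A7 values were 10.8, 12.6 and 14 TPM with isoform 9, 10.5, 9.42 and 9 with isoform 10, 9.06, 11 and 8.03 with isoform 11 and 11.4, 14.6 and 13.4 with isoform 12. In isoforms 1, 2, 3, 7, 8, 10 and 11 all libraries of SLC4A7 lay below the 3 parental ones, and isoforms 4, 5, 6, 9 and 12 overlapped them.

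SLC4A7 had a parental mean of 15.1 TPM ± 1.85 (SD, n = 3) and fell to 6.9 TPM ± 0.602 (SD, n = 3) with isoform 1, by limma -1.02 on the log2 scale (SE 0.11, adjusted p = 1.47e-09). The call lies at the 2-fold bound. It was lost after rescaling (-0.9), without parental replicate 2 (-0.93) and without isoform 1 replicate 1 (-0.98), and the authors' deposited table lists SLC4A7 at -0.97. With isoform 2 SLC4A7 was at 7.94 TPM ± 0.815 (SD, n = 3), a difference of -0.85 (adjusted p = 7.32e-08). The differences with isoforms 11, 7 and 10 were -0.64, -0.6 and -0.59.

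SLC4A11, a carrier of protons, water and borate known from the cornea, was below the parental cells in every line. It lies on chromosome 20 from 3227417 to 3239559, minus strand. Its parental libraries were at 21.1, 21 and 20.4 TPM. With isoform 1 SLC4A11 was at 11.3, 11.2 and 10.1 TPM and with isoform 2 at 10.8, 9.72 and 9.6 TPM. All 36 libraries of the lines lay below the parental ones, the highest at 19.4 TPM with isoform 7. The difference was -0.99 with isoform 2 (SE 0.07, adjusted p = 1.62e-12) and -0.88 with isoform 1, and the weakest was -0.24, with isoform 7 (adjusted p = 0.0102) and isoform 5 (adjusted p = 0.0222). After rescaling SLC4A11 remained below 0 in all 12 lines, and 11 passed. It was just short of 2-fold: with a pseudocount of 0.1 the isoform 2 value was -1.05, which is past it, and without isoform 2 replicate 1 it was -1.03. SLC4A11 is described after its values were seen.

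SLC4A2 exchanges chloride for bicarbonate in most epithelia. SLC4A2 was at 66.5, 64.1 and 64.4 TPM in the parental libraries, 66.7, 59.2 and 61.8 TPM with isoform 1, 62.1, 59.3 and 59.1 with isoform 2 and 66.9, 62.2 and 62.1 with isoform 3. For SLC4A2 the libraries had 60.4, 60.2 and 61.1 TPM with isoform 4, 61.3, 63.1 and 61 with isoform 5, 63.9, 63.7 and 67 with isoform 6, 58.2, 59.2 and 59.8 with isoform 7 and 60.6, 59.6 and 59.8 with isoform 8. The SLC4A2 values were 62.5, 59.2 and 59.7 TPM with isoform 9, 61.1, 57.4 and 60.4 with isoform 10, 64.5, 59.7 and 55.9 with isoform 11 and 60.8, 61.3 and 60.1 with isoform 12. In 8 lines all libraries of SLC4A2 lay below the parental ones, by little. The lowest difference was -0.14 (isoform 7, adjusted p = 0.00883), 5 lines passed the adjusted p, and 0 did after rescaling. SLC4A3 (8.57 TPM), another chloride-bicarbonate exchanger, had its lowest difference, -0.46, with isoform 2. SLC4A5, a sodium-bicarbonate cotransporter (5.75 TPM), passed the adjusted p in 0 lines, with a smallest adjusted p of 0.0657.

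Under 1 TPM were SLC4A8 (0.759 TPM), SLC4A4 (0.236 TPM), SLC4A9 (0.135 TPM), the red cell anion exchanger SLC4A1 (0.0424 TPM) and SLC4A10 (0.013 TPM). SLC4A4, the main basolateral sodium-bicarbonate cotransporter of gut and kidney, stayed under 0.4 TPM in every library. SLC4A4 was at 0.243, 0.196 and 0.186 TPM in the parental libraries, 0.357, 0.384 and 0.381 TPM with isoform 1, 0.183, 0.199 and 0.213 with isoform 2 and 0.149, 0.241 and 0.291 with isoform 3. For SLC4A4 the libraries had 0.215, 0.238 and 0.249 TPM with isoform 4, 0.224, 0.246 and 0.307 with isoform 5, 0.181, 0.191 and 0.126 with isoform 6, 0.276, 0.231 and 0.216 with isoform 7 and 0.168, 0.174 and 0.282 with isoform 8. The SLC4A4 values were 0.146, 0.213 and 0.327 TPM with isoform 9, 0.331, 0.278 and 0.265 with isoform 10, 0.204, 0.257 and 0.214 with isoform 11 and 0.21, 0.196 and 0.22 with isoform 12. Its line means ran from 0.166 TPM with isoform 6 to 0.374 TPM with isoform 1, against 0.208 TPM in the parental cells. The libraries of SLC4A4 with isoforms 1 and 10 lay above all parental libraries.

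SLC4A8, a sodium-driven chloride-bicarbonate exchanger, reached 1 TPM in all 3 parental libraries and in all 3 isoform 6 libraries only. It lies on chromosome 12 from 51391317 to 51515763, plus strand. SLC4A8 was at 1.02, 1.14 and 1.43 TPM in the parental libraries, 0.427, 0.455 and 0.446 TPM with isoform 1, 0.281, 0.427 and 0.376 with isoform 2 and 0.796, 0.394 and 0.429 with isoform 3. For SLC4A8 the libraries had 1.08, 0.719 and 0.599 TPM with isoform 4, 1.42, 1.06 and 0.989 with isoform 5, 1.39, 1.25 and 1.03 with isoform 6, 0.449, 0.523 and 0.721 with isoform 7 and 0.7, 0.664 and 0.659 with isoform 8. The SLC4A8 values were 0.778, 0.79 and 0.7 TPM with isoform 9, 0.539, 0.432 and 0.569 with isoform 10, 0.65, 0.543 and 0.364 with isoform 11 and 0.821, 1.31 and 1.26 with isoform 12. In isoforms 1, 2, 3, 7, 8, 9, 10 and 11 all libraries of SLC4A8 lay below the parental ones, while isoforms 4, 5, 6 and 12 overlapped them. The parental mean was 1.19 TPM ± 0.211 (SD, n = 3), against 0.443 TPM ± 0.0143 with isoform 1 and 0.361 TPM ± 0.0739 with isoform 2. In the fit without the filter the lowest difference of SLC4A8 was -0.69 with isoform 2 (SE 0.11, adjusted p = 1.05e-05), not 2-fold.

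The authors' deposited table lists SLC4A8 at -1.48 with isoform 2, -1.22 with isoform 1, -1.12 with isoform 3 and -1 with isoform 10. SLC4A8 overlaps GALNT6 on the other strand, which was at 9.76 TPM in the parental cells and differed by -0.4 with isoform 1 and -0.73 with isoform 2. The part of GALNT6 reads in the SLC4A8 values was not tested.

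The sodium-proton exchangers, SLC9, had 9 members, of which 6 were tested and 0 called. SLC9A3 (NHE3) absorbs sodium at the brush border of the intestine. SLC9A3 was at 5.89, 5.72 and 5.9 TPM in the parental libraries, 4.51, 4.88 and 4.28 TPM with isoform 1, 4.86, 4.51 and 4.54 with isoform 2 and 5.73, 6 and 5.72 with isoform 3. For SLC9A3 the libraries had 4.79, 5.38 and 4.68 TPM with isoform 4, 5.47, 6.13 and 5.72 with isoform 5, 5.85, 5.76 and 5.84 with isoform 6, 5.77, 6.23 and 6.48 with isoform 7 and 4.98, 5.43 and 4.88 with isoform 8. The SLC9A3 values were 5.91, 6.3 and 5.42 TPM with isoform 9, 5.04, 5 and 4.79 with isoform 10, 5.86, 5.69 and 4.99 with isoform 11 and 5.1, 5.26 and 4.82 with isoform 12. With isoforms 1, 2, 4, 8, 10 and 12 all libraries of SLC9A3 lay below the parental ones. The lowest difference was -0.3 with isoform 1 (SE 0.06, adjusted p = 8.35e-05; -0.18 after rescaling). At the adjusted p SLC9A3 was lower in 6 lines, and after rescaling lower in 3 and higher in 1. SLC9A3R1, the scaffold protein that holds NHE3 and other carriers at the brush border, is no member of the families and is given with the companion genes.

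SLC9A7 is an exchanger of the Golgi, and SLC9A5 one known from the brain. SLC9A5 was at 4.73, 4.75 and 4.5 TPM in the parental libraries, 3.24, 2.91 and 2.88 TPM with isoform 1, 2.68, 2.77 and 2.69 with isoform 2 and 4.45, 4.31 and 4.05 with isoform 3. For SLC9A5 the libraries had 5.06, 4.95 and 3.96 TPM with isoform 4, 4.83, 5.26 and 4.64 with isoform 5, 4.99, 4.97 and 4.98 with isoform 6, 4.33, 4.27 and 3.94 with isoform 7 and 3.87, 3.79 and 3.5 with isoform 8. The SLC9A5 values were 4.36, 4.4 and 4.09 TPM with isoform 9, 4.45, 4.16 and 3.73 with isoform 10, 4.61, 4.56 and 3.81 with isoform 11 and 4.26, 4.05 and 3.63 with isoform 12. The 6 libraries of isoforms 1 and 2 lay below every other library of SLC9A5. The differences were -0.61 with isoform 2 (SE 0.07, adjusted p = 2.28e-08) and -0.5 with isoform 1. FHOD1, which overlaps SLC9A5 on the other strand, was at 20.7 TPM in the parental cells and differed by -0.46 with isoform 1 and -0.41 with isoform 2, and its part in the SLC9A5 values was not tested.

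SLC9A7 was lower at the adjusted p in 7 lines, with -0.54 under isoform 1, and SLC9A8 in 5 lines, with -0.3 under isoform 10. SLC9A2 (0.701 TPM), SLC9A9 (0.175 TPM) and SLC9A4 (0.11 TPM) were under 1 TPM. SLC9A2 is an exchanger of gut epithelium. SLC9A2 was at 0.567, 0.589 and 0.668 TPM in the parental libraries, 1.05, 0.973 and 1.04 TPM with isoform 1, 0.971, 1.1 and 0.869 with isoform 2 and 0.482, 0.536 and 0.564 with isoform 3. For SLC9A2 the libraries had 0.582, 0.617 and 0.798 TPM with isoform 4, 0.602, 0.743 and 0.729 with isoform 5, 0.396, 0.296 and 0.322 with isoform 6, 0.445, 0.683 and 0.623 with isoform 7 and 0.737, 0.703 and 0.899 with isoform 8. The SLC9A2 values were 0.604, 0.725 and 0.801 TPM with isoform 9, 0.583, 0.554 and 0.514 with isoform 10, 0.633, 0.988 and 0.71 with isoform 11 and 0.636, 0.989 and 1.02 with isoform 12. The isoform 1, 2 and 8 libraries of SLC9A2 lay above the parental ones, and those with isoforms 3 and 6 below. Its mean reached 1 TPM with isoform 1 alone, at 1.02 TPM, against 0.608 TPM in the parental cells.

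The cation-chloride cotransporters, SLC12, had 9 members, of which 6 were tested and 0 called. SLC12A2 (NKCC1) loads chloride into epithelial cells for secretion. SLC12A2 was at 29.9, 30.9 and 30.2 TPM in the parental libraries, 20.4, 23 and 21.4 TPM with isoform 1, 24.4, 23.6 and 22.9 with isoform 2 and 24.3, 23.6 and 25.6 with isoform 3. For SLC12A2 the libraries had 26.9, 27.7 and 28.3 TPM with isoform 4, 27.2, 26 and 26.9 with isoform 5, 28.2, 27.5 and 25.6 with isoform 6, 25.2, 25.4 and 26.1 with isoform 7 and 28.2, 27.5 and 30 with isoform 8. The SLC12A2 values were 27.6, 27.2 and 32.3 TPM with isoform 9, 29.1, 26.8 and 25.6 with isoform 10, 24.8, 24.6 and 23 with isoform 11 and 27.5, 31.6 and 32.3 with isoform 12. In 9 lines all libraries of SLC12A2 lay below the parental ones, and 7 lines passed the adjusted p, also after rescaling. The lowest difference was -0.47 with isoform 1 (SE 0.06, adjusted p = 5.69e-08), and isoform 2 had -0.35.

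The potassium-chloride cotransporters SLC12A4 (16.2 TPM) and SLC12A7 (22.3 TPM), which lower cell volume and cell chloride, had estimates from -0.36 (SLC12A4, isoform 4) to 0.06 (SLC12A7, isoform 5). SLC12A8 (9.8 TPM) had estimates from -0.27 to 0.01, and SLC12A9 (22.8 TPM) from -0.12 to 0. SLC12A5 (0.685 TPM), the neuronal potassium-chloride cotransporter, was at 0.789 TPM in the parental cells and at 0.416 TPM with isoform 1. The kidney carriers SLC12A3 (0.0547 TPM) and SLC12A1, the latter listed at 0 in 36 libraries, were also under 1 TPM.

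The anion exchangers, SLC26, had 11 members, of which 4 were tested and 0 called. SLC26A2 takes up sulphate. It was at 13.2, 14.9 and 15 TPM in the parental libraries. With isoform 1 SLC26A2 was at 8.08, 8.67 and 9.05 TPM and with isoform 2 at 8.5, 8.88 and 8.63 TPM, all below every other library of the gene. The differences were -0.68 (SE 0.08, adjusted p = 3.98e-08) and -0.67 (adjusted p = 6.97e-08). Isoforms 4, 5 and 6 had -0.03, 0 and 0. TIGD6, which overlaps SLC26A2 on the other strand, stayed between -0.13 and 0.13.

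SLC26A6, which exchanges chloride for oxalate and bicarbonate, had 28.4 TPM and was higher at the adjusted p in 4 lines, with 0.41 under isoform 7. SLC26A11 (11.7 TPM) was at 0.31 with isoform 1 (adjusted p = 0.000209) and -0.24 with isoform 6 (adjusted p = 0.0183). SLC26A1 carries sulphate and oxalate. SLC26A1 was at 3.09, 3.86 and 4.13 TPM in the parental libraries, 3.2, 3.42 and 2.98 TPM with isoform 1, 2.32, 2.13 and 2.13 with isoform 2 and 2.83, 2.84 and 3.15 with isoform 3. For SLC26A1 the libraries had 3.18, 2.95 and 2.52 TPM with isoform 4, 3.12, 3.71 and 3.32 with isoform 5, 3.14, 2.87 and 2.6 with isoform 6, 3.06, 4.06 and 3.88 with isoform 7 and 3.05, 3.61 and 2.75 with isoform 8. The SLC26A1 values were 3.55, 2.81 and 4.08 TPM with isoform 9, 2.53, 2.58 and 3.04 with isoform 10, 3.66, 3.59 and 2.96 with isoform 11 and 2.58, 2.21 and 2.68 with isoform 12. The isoform 2, 10 and 12 libraries of SLC26A1 lay below the parental ones, isoform 2 with a difference of -0.55 (adjusted p = 5.45e-05). Under 1 TPM were SLC26A4 (0.658 TPM), SLC26A7 (0.566 TPM), SLC26A5 (0.255 TPM), SLC26A10 (0.197 TPM), SLC26A3 (0.0327 TPM), SLC26A8 (0.00916 TPM) and SLC26A9 (0.00762 TPM).

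SLC26A3 (DRA) is the chloride-bicarbonate exchanger of the colon surface, mutated in congenital chloride diarrhoea. SLC26A3 was at 0.0284, 0.0516 and 0.0157 TPM in the parental libraries, 0.0389, 0.0258 and 0.0155 TPM with isoform 1, 0.0417, 0.0537 and 0.0282 with isoform 2 and 0.0286, 0.0716 and 0.0541 with isoform 3. For SLC26A3 the libraries had 0.015, 0.0527 and 0.0585 TPM with isoform 4, 0.0125, 0.0536 and 0.014 with isoform 5, 0.0162, 0.0167 and 0.0157 with isoform 6, 0.0163, 0.0441 and 0.0156 with isoform 7 and 0.0427, 0.0518 and 0.0162 with isoform 8. The SLC26A3 values were 0, 0.0726 and 0.0364 TPM with isoform 9, 0.0324, 0.0492 and 0.0537 with isoform 10, 0.0319, 0.0141 and 0.028 with isoform 11 and 0.0127, 0 and 0.0485 with isoform 12. The highest library of SLC26A3 was at 0.0726 TPM and 2 libraries were listed at 0, and the means of the lines, up to 0.0514 TPM with isoform 3, lay around the parental 0.0319 TPM. SLC26A3 was the only one of the 65 members with a RefSeq start window in which a form of the HNF4 core was found. The form was CAAAGGTCA, in 1 of 99 member windows (1.01%) against 0.339% of all windows. CAAAGTCCA and CAAAGTTCA were in 0 member windows, against 0.325% and 0.251% of all windows. With 1 match the members cannot be set apart from all windows. The SLC26A3 window is shown, with the match in capitals, because no other member window held a form of the HNF4 core. Whether HNF4A binds there was not tested. Letters are from RefSeq, GRCh38.p14, on the gene's minus strand, chr7:107803224-107803473.
SLC26A3: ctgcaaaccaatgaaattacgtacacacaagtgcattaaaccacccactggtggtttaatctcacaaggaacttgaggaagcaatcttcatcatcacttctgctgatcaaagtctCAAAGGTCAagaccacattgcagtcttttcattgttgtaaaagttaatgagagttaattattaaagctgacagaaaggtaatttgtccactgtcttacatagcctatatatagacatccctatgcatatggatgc

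The sodium-calcium exchangers, SLC8 and SLC24, had 8 members between them, and 1 was tested. SLC24A1, an exchanger of sodium, calcium and potassium known from rod photoreceptors, had 5.69 TPM and estimates from -0.25 (isoform 2, adjusted p = 0.013) to 0.2. SLC8A2 (0.447 TPM), SLC8A1 (0.0373 TPM), SLC24A4 (0.141 TPM), SLC24A2 (0.0552 TPM) and SLC24A3 (0.0071 TPM) were under 1 TPM. SLC8A3 and SLC24A5 were listed at 0 in all 39 libraries.

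With 1.5-fold in place of 2-fold, at the same adjusted p, 7 members passed in at least 1 line, 15.2% of those tested against 21.7% of all genes. They were SLC41A2, SLC4A7, SLC4A11, SLC30A3, SLC26A2, SLC9A5 and SLC30A1. With isoform 1, 6 of them passed, against 15.8% of all genes, and with isoform 2, 6, against 12.2%. All 7 had their largest difference with isoform 1 or isoform 2. The 2 comparisons share their parental libraries.

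The 12 isoforms combine 4 forms of the N-terminal end (isoforms 1 to 3, 4 to 6, 7 to 9 and 10 to 12) with 3 forms of the C-terminal end, by the usual naming of HNF4A isoforms rather than by the labels. Lines were averaged and compared as 12 units, without the parental cells. Between isoforms 4 to 6 and isoforms 1 to 3, 1 member was called, against 1.95% of all genes. SLC41A2 was lower in isoforms 4 to 6, by -1.08 on the log2 scale (SE 0.16, adjusted p = 0.00262, -1.15 after rescaling). All 9 libraries of isoforms 4 to 6, from 6.7 to 8.07 TPM, lay under the 19.3 TPM and more of isoforms 1 and 2, while isoform 3 replicate 1, at 7.25 TPM, lay among them. With 1 library of each line left out, replicate 3 or, for isoforms 4 and 5, whose columns have no replicate number, the last column, the SLC41A2 difference was -0.99 and missed 2-fold.

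At the adjusted p alone, 14 members differed between these classes, against 34.6% of all genes. SLC30A3 was higher in isoforms 4 to 6 by 0.82 (SE 0.14, adjusted p = 0.00448), SLC4A7 by 0.63 (SE 0.1, adjusted p = 0.00363), SLC26A2 by 0.55 (SE 0.08, adjusted p = 0.00262), SLC4A11 by 0.47 (adjusted p = 0.026) and SLC9A5 by 0.45 (adjusted p = 0.0145). Lower in isoforms 4 to 6 were SLC26A6 and SLC30A1, both by -0.37. Between isoforms 7 to 9 and isoforms 1 to 3, limma called 0 members, against 0.52% of all genes, with 15 members at an unadjusted p under 0.05.

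Between isoforms 10 to 12 and 7 to 9, limma called 0 members, against 0% of all genes, with 1 at an unadjusted p under 0.05. For the inserted against the standard C-terminal form it called 0, against 0% of all genes, with 0 at an unadjusted p under 0.05, and for the short form against the others 0, against 0.00667%, with 7. In these last 3 comparisons the smallest adjusted p of SLC41A2 was 0.179, for the short form (-0.36, SE 0.12).

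Genes that handle the same ions outside the 12 families were read from lists chosen with earlier results of these data known. Of 6 tested genes of the zinc and metallothionein list, 1 was called in a line, against 6.57% of all genes in at least 1 line. The metallothionein MT2A fell with isoform 11, from a parental mean of 1094 TPM ± 167 (SD, n = 3) to 499 TPM ± 156 (SD, n = 3) (-1.17, SE 0.4, adjusted p = 0.0202). MT2A varied between libraries: the call was lost in 3 of the 6 fits that leave out 1 library, without parental replicate 1, isoform 11 replicate 2 or isoform 11 replicate 3 (lowest size -0.94), and in the fit without a filter. MT2A was named after its values were seen. Of 11 tested copper genes limma called 0 in any line, while 10 had an unadjusted p under 0.05 in at least 1 line.

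Of 24 tested iron genes, 2 were called in at least 1 line, 8.33%, near the 6.57% of all genes. HEPH, hephaestin, the ferroxidase that works with ferroportin at the basolateral side of the enterocyte, rose with isoforms 1, 2, 7, 10 and 11, from a parental mean of 0.573 TPM ± 0.0433 (SD, n = 3) to 10.2 TPM ± 0.48 (SD, n = 3) with isoform 1 (2.83, SE 0.1, adjusted p = 1.24e-19). HMOX1, which frees iron from haem, rose with isoforms 1, 2, 3, 7 and 10, from a parental mean of 23.7 TPM ± 1.96 (SD, n = 3) to 135 TPM ± 18.1 (SD, n = 3) with isoform 1 (2.45, SE 0.09, adjusted p = 5.19e-20). The HMOX1 calls with isoform 3 (0.92 to 1.12) and isoform 10 (0.96 to 1.09) were lost in 4 and 3 of the 6 fits that leave out 1 library, among them those without parental replicate 2 or 3. HEPH rose in 5 lines in which SLC40A1 had a mean of at most 0.0217 TPM and SLC11A2 differed by -0.4 to -0.12.

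Of 27 tested genes for acid, chloride and cation handling, 7 were called in at least 1 line, 25.9%, against 6.57% of all genes. This list, too, was chosen with earlier results of these data known, so its share is no evidence that such genes were called more often. SLC9A3R1 rose with isoforms 1, 2, 10 and 11, from a parental mean of 88.3 TPM ± 1.87 (SD, n = 3) to 359 TPM ± 14.7 (SD, n = 3) with isoform 1 (2.01, SE 0.08, adjusted p = 9.69e-19), while SLC9A3 itself was between -0.3 and 0.07. ATP1B1, a subunit of the sodium pump, rose with isoforms 1, 2, 7, 10 and 11, from a parental mean of 19 TPM ± 1.49 (SD, n = 3) to 50.1 TPM ± 2.02 (SD, n = 3) with isoform 2 (1.35, SE 0.07, adjusted p = 2.19e-16). The carbonic anhydrase CA9 rose with isoforms 1, 7 and 9, from a parental mean of 0.463 TPM ± 0.0349 (SD, n = 3), which is under 1 TPM. It was at 3.43 TPM ± 0.752 (SD, n = 3) with isoform 1 (1.59, SE 0.2, adjusted p = 5.58e-08) and 2.59 TPM ± 1.06 (SD, n = 3) with isoform 9 (1.25). The other 4, named after their values were seen, were CA13 (higher with isoforms 1 and 2), CA12 (higher with isoform 2, but not without parental replicate 2, at 0.98), CA2 (lower with isoform 1, but not after rescaling) and the chloride channel ANO1 (higher with isoform 4).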

How the data were processed

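RNA-seq libraries of 13 groups, 3 a group, were used as 13 tables that the authors deposited. The deposited TPM values were made with Trimmomatic 0.36, FastQC 0.11.5, kallisto 0.44.0 and build GRCh38.p12, per the submitters' processing notes, from poly(A) RNA with a kit that keeps strand, per the labels' protocols. No source used here says whether quantification used strand. Per the file headers, each line's table adds the authors' DESeq2 (1.22.2) comparison with the parental cells: the mean normalised count (a signal per gene), the log2 fold change and its error, the score of the test, and p-values before and after adjustment.

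Here TPM were tested as log2(TPM + 1) with limma 3.58.1 in R 4.3.3, in 1 fit of 39 libraries and 13 groups (26 residual degrees of freedom, mean-variance trend), over the 15003 genes whose mean reached 1 TPM. The pseudocount of 1 makes the fold changes of low genes smaller. Calls needed an adjusted p (Benjamini-Hochberg) below 0.05 and 2-fold or more. The adjusted p-values in the text are limma's unless the authors' deposited table is named. Classes of isoforms were compared over 12 line means. The test was checked on simulated data. HNF4A rows were summed. The members and gene lists were chosen with earlier results of these data known. Values in every library are given for members called in a line, for members listed by role, for members under 1 TPM that reach it in a group, and for the 2 members on each side of the filter. Companion genes are named where called in at least 3 lines. Others were named after their values were seen. The values of 3 tested members are not reported here, though the counts include them. Group and library come from the labels. The titles of isoforms 4 and 5 number 3 replicates but repeat 1 bracketed column name, so their 6 columns could not be tied to a replicate number. Replicate numbers were not treated as pairs in the main fit. Gene positions are from GENCODE 29, start windows from RefSeq, GRCh38.p14, for 65 of the 79 members. Alternatives tried were the pseudocount, the filter, the scaling, the minimum fold, the trend, 3 against 3 libraries, the replicate block and leaving out each library.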

Additional observations from a re-analysis of the deposited data

Results flagged for a closer look

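Between isoforms 4 to 6 and isoforms 1 to 3, compared as line means without the parental cells, 14 members differed at limma's adjusted p, with no minimum fold. Higher in isoforms 4 to 6 were SLC30A3 (0.82 on the log2 scale), SLC4A7 (0.63), SLC26A2 (0.55), SLC4A11 (0.47), SLC9A5 (0.45), SLC9A7 (0.35), SLC41A1 (0.23), SLC12A2 (0.22) and SLC39A3 (0.17). Lower were SLC41A2 (-1.08), SLC26A6 (-0.37), SLC30A1 (-0.37), SLC39A4 (-0.27) and SLC26A11 (-0.26). Of all genes, 34.6% differed in the same way. Between isoforms 7 to 9 and isoforms 1 to 3, 5 members differed, and the 4 reported here were higher in isoforms 7 to 9: SLC26A2 (0.42), SLC9A7 (0.35), SLC30A6 (0.21) and SLC30A5 (0.14), where 11.6% of all genes differed.

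SLC39A5, outside the main test because of its low mean, reached 2.19 TPM with isoform 1 and 1.24 TPM with isoform 2, while its 3 parental libraries stayed at 0.271 TPM or less.

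Members that differed from the parental cells in opposite directions in a pair of lines, at the adjusted p alone, were set line against line, a comparison added after seeing the data. SLC30A3 was 1.18 higher with isoform 4 than with isoform 1, and SLC39A8 was 0.63 higher with isoform 4 than with isoform 7. SLC26A11 was 0.54 higher with isoform 1 than with isoform 6. The others were SLC39A4 (isoform 9 above 4, 0.47), SLC39A9 (6 above 2, 0.47), SLC39A13 (10 above 2, 0.33) and SLC39A1 (10 above 1, 0.29). These 7 pass the adjusted p (largest 3.17e-06), in contrasts in which 29.7% to 56.5% of all genes did. For each member the highest was set against the lowest of its lines past the adjusted p. The lines were picked from the same data, so passing was close to fixed in advance and is no further support. After rescaling of the libraries, SLC30A3, SLC39A8 and SLC26A11 still passed in both directions against the parental cells, and the other 4 did not.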

How the results depend on the processing

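With no minimum fold, the members counted were 27, 32, 8, 12, 5, 8, 22, 15, 9, 20, 20 and 11 for isoforms 1 to 12, and 41 in at least 1 line. Of all genes, the shares for isoforms 1 to 12 were 58.5%, 55.3%, 26%, 16.3%, 14.8%, 10.1%, 39.6%, 34.4%, 22.7%, 37.3%, 38.5% and 14.6%. At 1.5-fold the members were 6 with isoforms 1 and 2, 2 with isoforms 7, 10 and 11, 1 with isoforms 3, 8, 9 and 12, and 7 in at least 1 line. No share of all genes is given for the 41, or for 1.5-fold with isoforms 3 to 12. Counts without a share show only how far a setting moves them and are no result about the members. Median-of-ratios scaling gave 1 with isoform 1, 1 with isoform 7 and 1 in at least 1 line. A pseudocount of 0.1 gave 2 with isoform 2 and 1 with isoform 7. Leaving out 1 library gave 1 to 2 with isoforms 1 and 2, 0 to 1 with isoforms 7 and 11, and 1 to 2 in at least 1 line (1 without parental replicate 2). Between isoforms 4 to 6 and 1 to 3 there were 14 members with no minimum fold, and leaving out 1 library of each line gave 0 to 1. Between 7 to 9 and 1 to 3 there were 5 with no minimum fold.

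Companion genes with no minimum fold were 43, 44, 29, 13, 17, 13, 37, 31, 23, 36, 32 and 26 for isoforms 1 to 12. The shares of all genes with no minimum fold given above for each line apply here too. A pseudocount of 0.1 gave 2 with isoforms 3, 4, 9 and 12, 5 with isoform 8 and 7 with isoform 10. Scaling gave 2 with isoform 3 and 1 with isoform 8. A filter of 5 TPM gave 2 with isoform 7 and 0 with isoform 9. Leaving out 1 library, chosen after seeing the data, gave 0 to 3 with isoform 3 and 0 to 2 with isoform 8. The causes were not tested. Of 336 values of single members under the alternatives, 306 stayed on their side of the threshold, 7 lost the call, 23 gained it and 0 changed sign. The values with no minimum fold or with 1.5-fold reuse the main fit with a lower bound. In those a call could only be gained and no sign could change, so they are no check of the fit.

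Of 30 pairs of a line and a parental library with the same number, 4 had correlated deviations over 0.1 (-0.047 to 0.187). Over all 165 pairs of libraries from different groups with the same number, the median correlation was 0.054. For pairs with other numbers it was -0.029. Whether libraries of the same number share an effect was not tested. With the replicate block, over 33 libraries without isoforms 4 and 5, the members called stayed at 2 with isoform 1, 1 with isoform 2 and 1 with isoforms 10 and 11. TPM keep no depth, so counting error is unknown, and members near 0 TPM bear no fold.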
